A study of Mus musculus with 14 samples.

Results

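Macrophages were followed in bulk RNA-seq of control DRGs and plexiform neurofibromas (PNs) through 10 marker genes: *C1qa*, *C1qb*, *C1qc*, *Csf1r*, *Cd68*, *Adgre1*, *Mrc1*, *Cd163*, *Ms4a7*, and *Aif1*. They were chosen by gene symbol from the 24062 genes of the count table, all 10 were found (*Adgre1* under its older symbol, Emr1), and all 10 passed the filter on low counts in every comparison. The control libraries (n = 3; DRG3, DRG4, and DRG5) were made from DRGs with their nerves from Nf1fl/fl mice, which carry the floxed alleles without Cre. The PN libraries came from DhhCre;Nf1fl/fl mice, in which Cre is driven by the *Dhh* promoter of the Schwann cell lineage, so macrophages in these tumors keep *Nf1*. By MRI at 7 and 9 months, 5 PNs that changed by less than 5 mm3 were classed as slow growing (libraries 1079, 1198A, 1202, 1203, and 1206), and 6 that grew by more than 35 mm3 as fast growing (1053, 1071, 1179, 1191, 1214, and 1216). All mice were untreated, carried a mixed C57BL/6, I-129, and FVBN background by the labels (largely C57BL/6 by the study's methods), and were 9 months old by the study's methods, although a legend in the study gives the bulk PNs as 7 months old.

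Tissue macrophages are phagocytes that live in every organ, including the DRG and the nerve, where they clear debris after injury and sample the tissue around axons. They arise from embryonic precursors or from blood monocytes, and both routes depend on signalling through the receptor CSF1R and on the transcription factor PU.1. In neurofibromas, macrophages are among the most frequent nontumor cells. Because whole tissue was sequenced, a lower level can come from fewer macrophages or from less RNA per macrophage, and these cannot be told apart here.

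The total count on genes ran from 9596773 to 17594164 over the libraries, and values are given as CPM, counts scaled to a common library size with TMM factors. The lowest count of any marker in any library was 8, so no marker was at or under the floor of 3 counts. *Nf1* was at 131 to 229 CPM in controls and at 224 to 293 CPM in PNs, a total over all cells and exons that does not measure the deletion in Schwann cells. Markers of neurons summed to 1527 to 5662 CPM in controls, and to 25 CPM in the fast-growing PN 1191 against at least 2146 CPM in each of the other 10 PNs. Skeletal muscle markers summed to 3861 to 15860 CPM in controls, 31 to 3692 CPM in slow-growing PNs, and 80.1 to 2411 CPM in fast-growing PNs, and fat markers to 2819 to 4493, 14.7 to 2355, and 13.8 to 191 CPM in the same order. Lymphocyte markers summed to 8.29 CPM in DRG3 but to 397 and 309.8 CPM in DRG4 and DRG5, and among PNs they were highest in 1079, 1179, and 1191 (266, 117.7, and 131.2 CPM, against at most 35.3 CPM in the other 8). Granulocyte markers were at 1661 CPM in DRG5 and at 234 and 68.7 CPM in DRG3 and DRG4. Each PN library carries its own animal number, while the controls are labelled only DRG3, DRG4, and DRG5. The p-values measure the spread between these libraries.

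The markers lie at separate places in the genome except for the 3 C1q genes, which sit side by side on the minus strand within 18675 bases of chromosome 4 (mm10, positions 136880129 to 136898803) in the order *C1qb*, *C1qc*, *C1qa*. Positions are those of GENCODE M21. *Cd68* (69664213 to 69666153, minus strand) lies on chromosome 11, *Adgre1* (57358691 to 57483527, plus) and *Aif1* (35170991 to 35176068, minus) on chromosome 17, *Mrc1* (14229392 to 14332057, plus) on chromosome 2, *Cd163* (124304656 to 124330527, plus) on chromosome 6, and *Ms4a7* (11321039 to 11336146, minus) on chromosome 19. The promoters of 4 markers are shown because these genes followed different patterns over the libraries: *C1qb* and *Cd68* moved with most other markers, *Ms4a7* differed most between the tumor classes, and *Cd163* moved apart from the rest. Each run is the 250 bases before the RefSeq gene start, written 5′ to 3′ on the gene's strand (GRCm38.p6), at chr4:136886201-136886450 for *C1qb* (minus strand), chr11:69666171-69666420 for *Cd68* (minus strand), chr6:124304401-124304650 for *Cd163* (plus strand), and chr19:11336147-11336396 for *Ms4a7* (minus strand), and capitals mark GAGGAA or its reverse complement TTCCTC, an ETS core as bound by PU.1.
C1qb: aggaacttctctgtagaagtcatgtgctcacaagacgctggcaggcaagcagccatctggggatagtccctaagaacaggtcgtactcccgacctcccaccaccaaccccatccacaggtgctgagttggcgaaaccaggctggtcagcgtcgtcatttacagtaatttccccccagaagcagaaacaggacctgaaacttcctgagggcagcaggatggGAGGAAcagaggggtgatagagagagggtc
Cd68: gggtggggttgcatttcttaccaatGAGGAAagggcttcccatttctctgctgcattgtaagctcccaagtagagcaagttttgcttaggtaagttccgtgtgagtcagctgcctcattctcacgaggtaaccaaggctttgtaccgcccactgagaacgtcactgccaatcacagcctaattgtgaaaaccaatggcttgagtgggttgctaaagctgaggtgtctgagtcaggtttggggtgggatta
Cd163: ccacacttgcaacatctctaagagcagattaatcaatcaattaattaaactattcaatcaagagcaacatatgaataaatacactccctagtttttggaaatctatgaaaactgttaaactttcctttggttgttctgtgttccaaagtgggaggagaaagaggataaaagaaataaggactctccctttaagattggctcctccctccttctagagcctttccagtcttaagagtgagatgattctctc
Ms4a7: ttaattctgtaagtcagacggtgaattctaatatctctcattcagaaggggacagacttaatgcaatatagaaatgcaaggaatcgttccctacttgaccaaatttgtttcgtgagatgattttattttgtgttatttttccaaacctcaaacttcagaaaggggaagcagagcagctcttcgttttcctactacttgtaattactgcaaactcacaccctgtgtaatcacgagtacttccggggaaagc
RefSeq promoters were at hand for 7 of the 10 markers. Of these, 5 (*Aif1*, *C1qb*, *C1qc*, *Cd68*, and *Mrc1*) held GAGGAA on either strand in the 250 bases, as did 23.3% of 32851 mouse promoters. In *C1qb* the match began 30 bases before the start. The window of *Cd163* and both windows of *Ms4a7*, which has 2 annotated starts, held none. The AP-1 motif TGANTCA was found in *Cd68*, at 149 and 24 bases before the start, and in the inner *Ms4a7* promoter, against 6.75% of all promoters. TTGCNNAA, as bound by C/EBP factors, was found in *Cd68* (9.56% of all promoters), and TATAAA in none of the 7 (12.4%). A match in these letters is a description of the sequence only.

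Comparing the levels between markers requires a scale per transcript length, here CPM per kilobase of the longest annotated transcript. On that scale *C1qb* was the highest of the 10 in each group, with a mean ± SD of 68.9 ± 37.2 in control DRGs (n = 3), 31.7 ± 32.6 in slow-growing tumors (n = 5), and 107 ± 39.2 in fast-growing tumors (n = 6). *C1qc* was second in each group, at 62.2, 21.2, and 63 CPM per kilobase. Within libraries *C1qc* was below *C1qb* in all 14, at 0.525 to 0.954 of its level, although their ranges over libraries overlapped in each group. At the other end, *Ms4a7* was the lowest in controls (3.08) and in slow-growing PNs (0.555) and *Cd163* the lowest in fast-growing PNs (2.83). *Cd68* ranked next after *C1qb* and *C1qc* in controls and slow-growing PNs but not in fast-growing PNs, where *C1qa* and *Csf1r* stood above it at 30.1 and 29.8 against 27.1.

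**Figure D1:**
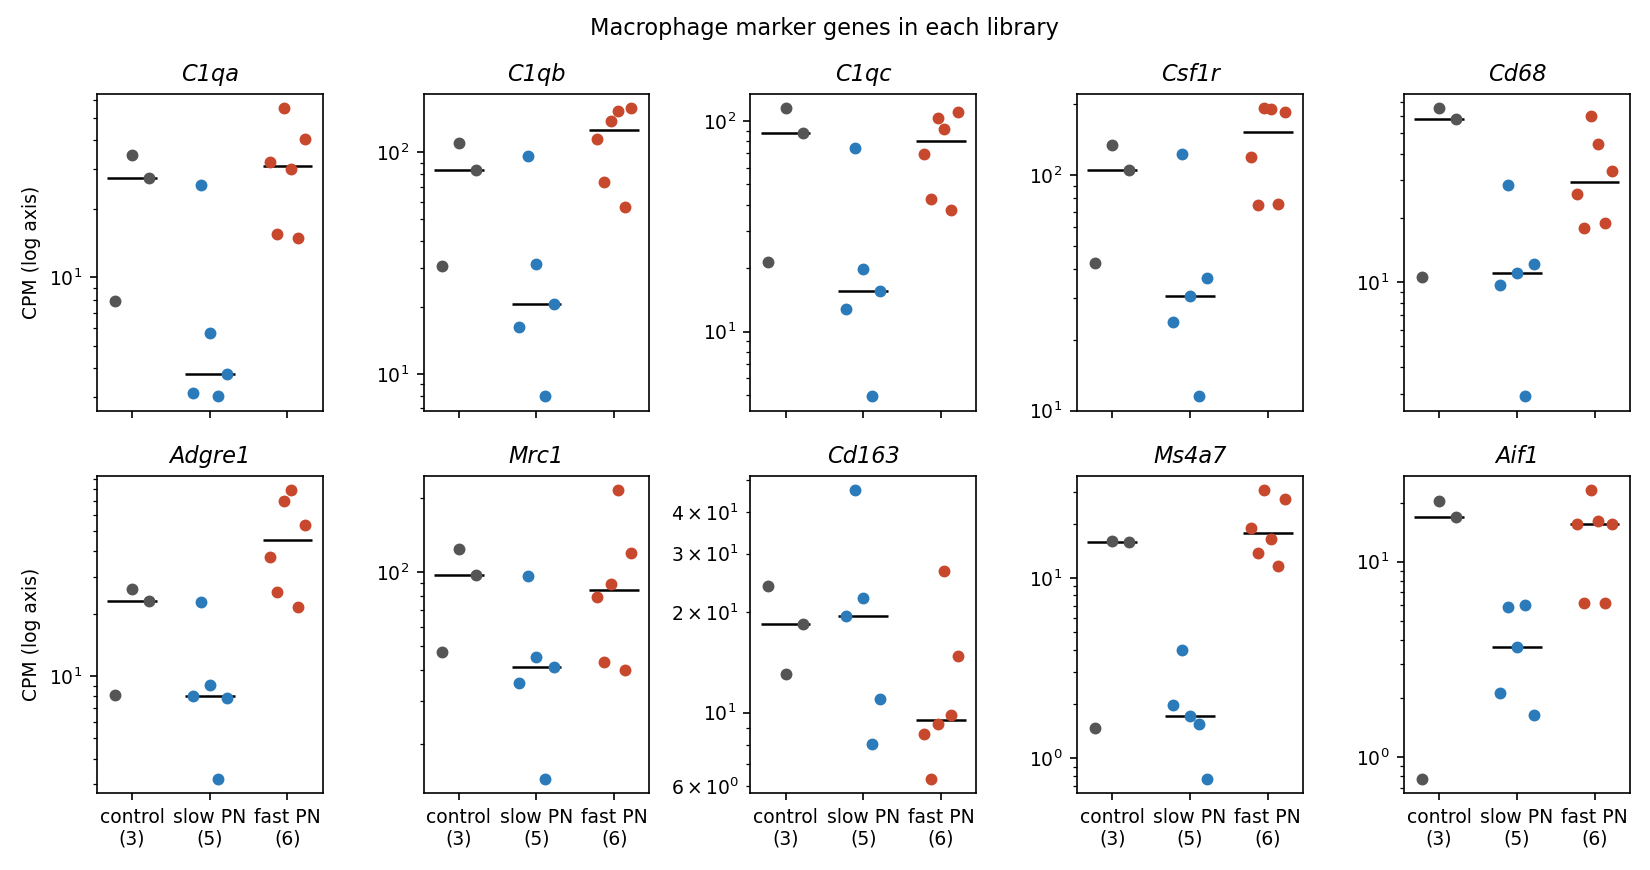
CPM of the 10 macrophage marker genes on log axes; each point is 1 library and each bar the group median, for control DRGs (n = 3), slow-growing PNs (n = 5), and fast-growing PNs (n = 6). The slow-growing PN 1198A stands near the fast-growing PNs for most genes, the control DRG3 lies below the other controls for 9 genes, and only *Ms4a7* and *Aif1* have every fast-growing PN above every slow-growing PN.

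*C1qa*, *C1qb*, and *C1qc* encode the chains of C1q, the recognition molecule of the classical complement pathway, which tissue macrophages and microglia make. *C1qa* was at 7.86, 34.3, and 27.4 CPM in DRG3, DRG4, and DRG5, at 3.12, 25.5, 5.69, 3.01, and 3.76 CPM in the slow-growing PNs 1079, 1198A, 1202, 1203, and 1206, and at 14.9 to 55.4 CPM (median 30.9) in the fast-growing PNs. *C1qb*, with libraries in the same order, was at 30.9, 110.5, and 83.4 CPM in controls, 16.3, 96.1, 31.5, 7.94, and 20.7 CPM in slow-growing PNs, and 56.7 to 159 CPM (median 127) in fast-growing PNs. In 1079, 1202, 1203, and 1206, the levels lay below every fast-growing PN for both genes, whereas 1198A lay within the fast-growing range. *C1qc* was at 21.3, 115, and 88 CPM in controls, 12.8, 74.3, 19.8, 4.93, and 15.6 CPM in slow-growing PNs, and 37.6 to 110.3 CPM (median 80.5) in fast-growing PNs. The fold changes between fast- and slow-growing PNs, on the log2 scale, were 1.92 (SE 0.62, edgeR adjusted p = 0.113) for *C1qa*, 1.75 (SE 0.57, edgeR adjusted p = 0.115) for *C1qb*, and 1.57 (SE 0.60, edgeR adjusted p = 0.169) for *C1qc*, and none passed the test. The chains kept similar proportions, with *C1qc* at 0.525 to 0.714 of *C1qb* per kilobase over the 11 PNs and *C1qa* at 0.189 to 0.419. In controls *C1qc* was at 0.626 of *C1qb* in DRG3 and at 0.943 and 0.954 in DRG4 and DRG5, the last 2 above every PN.

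*Csf1r* encodes the receptor for the growth factors CSF1 and IL-34, on which most tissue macrophages depend. GENCODE places it on chromosome 18 (mm10, 61100598 to 61132149, plus strand), where an exon of *Hmgxb3* overlaps it on the opposite strand, and whether the counting used strand is not stated. *Csf1r* was at 42.3, 134, and 105 CPM in controls, 23.9, 124, 30.8, 11.5, and 36.5 CPM in slow-growing PNs, and 74.5 to 193 CPM (median 153) in fast-growing PNs, and 1198A again lay within the fast-growing range. The difference between fast- and slow-growing PNs was 1.63 (SE 0.55, edgeR adjusted p = 0.127) on the log2 scale. *Adgre1* encodes F4/80, the adhesion receptor by which mouse macrophages are commonly stained. It was at 8.12, 26.3, and 22.9 CPM in controls, 8.06, 22.8, 9.04, 3.19, and 7.81 CPM in slow-growing PNs, and 21.7 to 78.9 CPM (median 45.6) in fast-growing PNs. *Adgre1* overlapped between the tumor classes by 1 library each, since 1198A stood just above the lowest fast-growing PN, 1214 (21.7 CPM). Its log2 difference of 2.23 (SE 0.50, edgeR adjusted p = 0.0531) was the second largest of the 10 and missed the threshold of 0.05. *Adgre1* was also the marker with the highest mean in fast-growing PNs relative to controls, at 47.9 ± 23.6 CPM against 19.1 ± 9.66 CPM (SD, n = 6 and 3).

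*Cd68* encodes a glycoprotein of late endosomes and lysosomes that is abundant in phagocytes. It was at 10.5, 65.5, and 57.9 CPM in controls, 9.73, 28.6, 11.1, 2.92, and 12.2 CPM in slow-growing PNs, and 17.9 to 60.1 CPM (median 29.4) in fast-growing PNs. It was the only marker whose group means ran from controls (44.6 CPM) through fast-growing PNs (33.3 CPM) to slow-growing PNs (12.9 CPM), and neighbours in this order overlapped. *Aif1* encodes IBA1, an actin-binding protein of macrophages and microglia. It was at 0.778, 20.5, and 16.9 CPM in controls, 2.13, 5.86, 3.66, 6.02, and 1.64 CPM in slow-growing PNs, and 6.12 to 23.1 CPM (median 15.6) in fast-growing PNs. Every fast-growing PN was above every slow-growing PN, though the gap between 1203 and the lowest fast-growing PN was only from 6.02 to 6.12 CPM. *Aif1* in DRG3 rested on 9 counts, the second lowest count of any marker in any library. Its log2 difference between fast- and slow-growing PNs was 1.83 (SE 0.45, edgeR adjusted p = 0.0591).

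*Ms4a7* encodes a four-pass membrane protein of the MS4A family that is expressed by macrophages. It was at 1.47, 16.1, and 15.8 CPM in controls, 1.98, 3.98, 1.73, 1.55, and 0.771 CPM in slow-growing PNs, and 11.7 to 30.6 CPM (median 17.7) in fast-growing PNs. The lowest fast-growing PN was at 2.93 times the level of the highest slow-growing PN, and the control DRG3 lay within the slow-growing range while DRG4 and DRG5 lay within the fast-growing range. The slow-growing levels rested on 8 to 53 counts per library. *Ms4a7* was the only marker that passed the test, higher in fast- than in slow-growing PNs by 3.28 (SE 0.41, edgeR adjusted p = 0.0156) on the log2 scale, in 6 of 6 fast-growing PNs. A two-sided exact permutation test of its log2(CPM + 1) over the 462 assignments of these libraries gave p = 0.00433, the smallest that they can give. The call was lost without 1079, 1202, 1206, 1053, 1179, or 1191, fits in which edgeR called at most 3 genes in all. Over all 11 fits that left out 1 library, the adjusted p in edgeR reached 0.0786 and the log2 difference stayed between 3.09 and 3.70.

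*Mrc1* encodes CD206, a mannose receptor, and *Cd163* encodes the receptor that clears haemoglobin bound to haptoglobin, and both are often used to mark macrophages of resident or alternatively activated type. *Mrc1* was at 47.3, 124, and 97 CPM in controls, 35.3, 95.9, 45.3, 14.4, and 41.2 CPM in slow-growing PNs, and 39.95 to 215 CPM (median 84.2) in fast-growing PNs, with 1191 the highest of all 14 libraries. The fast-growing PNs 1053, 1071, 1179, and 1214 were at 79.2, 43.1, 89.3, and 39.95 CPM, within the slow-growing range. *Cd163* ran the other way, at 23.9, 13, and 18.5 CPM in controls, 19.5, 46.4, 22, 8.03, and 11 CPM in slow-growing PNs, and 6.33 to 26.6 CPM (median 9.53) in fast-growing PNs. Its highest level was in 1198A, the slow-growing PN in which most other markers, though not *Ms4a7* or *Aif1*, were also high, and its highest fast-growing level was in 1191. *Cd163* was the only marker with its mean highest in slow-growing PNs (21.4 ± 15.2 CPM), then in controls (18.5 ± 5.45 CPM), and lowest in fast-growing PNs (12.6 ± 7.4 CPM), and these groups overlapped. Without 1198A, the log2 difference of slow-growing PNs from controls turned from 0.18 to -0.32. The log2 difference between fast- and slow-growing PNs was -0.77 (SE 0.47, edgeR adjusted p = 0.391) for *Cd163* and 1.07 (SE 0.52, edgeR adjusted p = 0.27) for *Mrc1*.

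The comparison of fast- with slow-growing PNs asks whether macrophage transcripts differ with the growth of the tumor. Of the 10 markers 1 was called, *Ms4a7*, where 0.802% of the 15465 genes tested were called higher, 0.466% lower, and 1.27% in either direction. The log2 difference was positive for 9 of the 10, with a median of 1.69 over the markers, where 46.5% of all genes had a positive difference and their median was -0.03. The groups did not overlap for 2 of the 10, *Ms4a7* and *Aif1*, where 2.10% of all genes had every fast-growing PN above every slow-growing PN. At an unadjusted p under 0.05, 8 of the 10 passed in edgeR, and the share of all genes that passed at this threshold is not given here. DESeq2 called 6 of the 10 (*C1qa*, *C1qb*, *Csf1r*, *Adgre1*, *Ms4a7*, and *Aif1*) and 10.2% of all genes, and limma voom called *Ms4a7* alone and 0.220% of all genes. Without the slow-growing PN 1198A, edgeR called 8 of the 10, all but *Mrc1* and *Cd163*, and 7.65% of all genes. With muscle and fat marker scores as covariates, or without the 3 PNs with the most lymphocyte transcripts (1079, 1179, and 1191, an alternative added after seeing the data), edgeR called none of the 10 and no gene at all, with *Ms4a7* still higher by 2.81 and 3.17 on the log2 scale. Fat marker sums were higher in 3 slow-growing PNs (1294 to 2355 CPM in 1198A, 1202, and 1206) than in every fast-growing PN, and their part in the differences of the markers was not tested beyond this covariate. Fibroblast markers moved with the macrophage markers, with sums of 1292 to 5692 CPM in slow-growing and 5550 to 10490 CPM in fast-growing PNs and a positive log2 difference for 7 of 8 (median 1.06), none of them called. Neuron markers had a negative difference for 10 of 10 (median -0.70), none called, with sums of 2593 to 12870 CPM and 25 to 7068 CPM. None of these genes was at 0 in any library, and the part of either cell type in the differences of the markers was not tested.

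**Figure D2:**
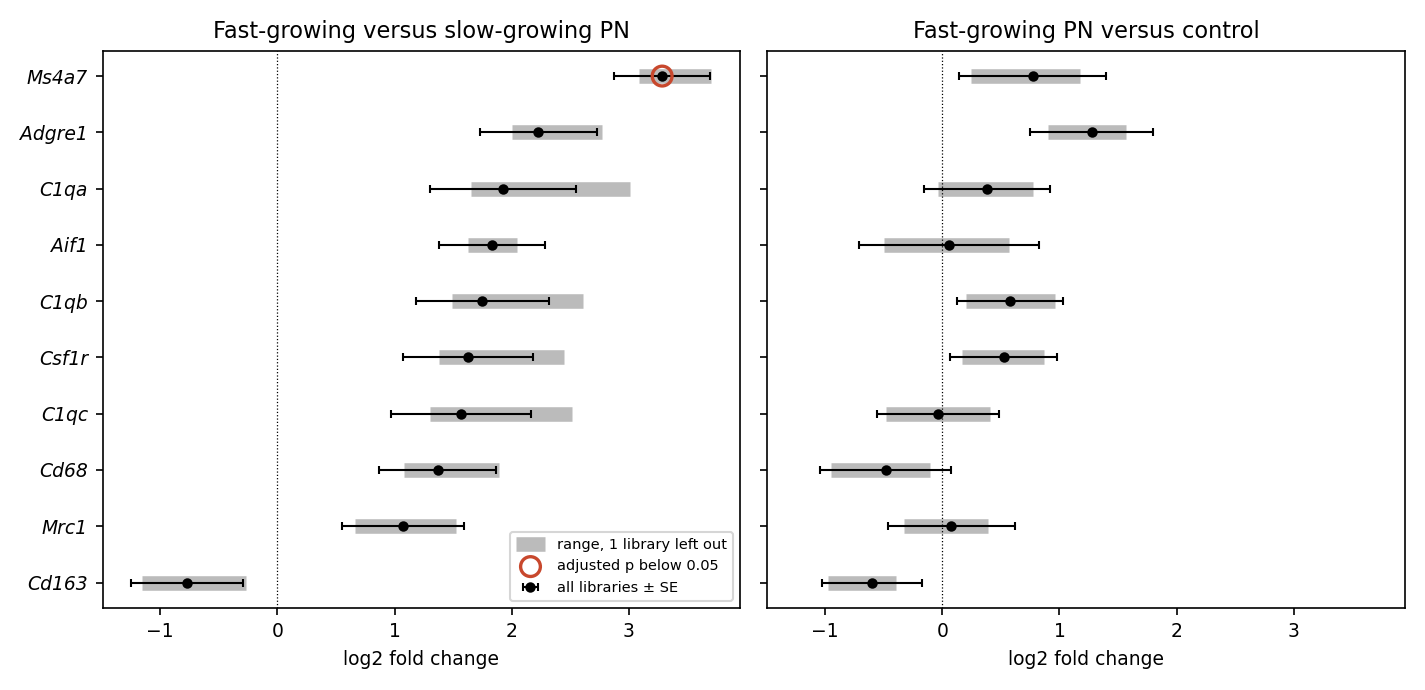
Log2 fold changes of the 10 markers in edgeR, for fast- against slow-growing PNs (left) and fast-growing PNs against controls (right); points are the fit of all libraries with SE, grey bars the range when each library was left out in turn, and the ring marks an adjusted p below 0.05. On the left 9 markers lie above 0 and only *Ms4a7* is ringed, and on the right no marker is ringed.

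Against controls, the question is whether macrophage transcripts differ between tumor and normal DRG. In the 11 PNs as 1 group, none of the 10 markers was called by edgeR, where 26.3% of 16283 genes were called (4283, against 407 with muscle and fat covariates and 628 with DRG3 as the only control), and none passed at an unadjusted p under 0.05. At that threshold 6330 of the 16283 genes passed. DESeq2 and limma voom also called none of the 10 markers, where they called 5170 and 4291 genes. The log2 differences ran from -0.89 (SE 0.64, edgeR adjusted p = 0.325) for *Cd68* to 0.69 (SE 0.81, edgeR adjusted p = 0.56) for *Adgre1*, 4 of the 10 were positive where 55.7% of all genes were, and their median was -0.15. Each of the 10 changed sign under at least 1 alternative. In slow-growing PNs none of the 10 was called by edgeR, where 11.3% of 15714 genes were called at the adjusted p. Unadjusted, 2 of the 10 passed, where 4765 of the 15714 genes did. The log2 difference was negative for 9 of the 10, where 47.8% of all genes had a negative difference, and the median over the markers was -1.35. *Ms4a7* had the lowest value of -2.50 (SE 0.72, edgeR adjusted p = 0.0595) and was called by DESeq2 (22.5% of all genes). Limma voom called none of the 10, where it called 1844 genes, and *Cd163* was at 0.18 (SE 0.53, edgeR adjusted p = 0.834). In fast-growing PNs none of the 10 was called by edgeR, where 31.4% of 16037 genes were called at the adjusted p. Unadjusted, 1 of the 10 passed, *Adgre1*, at 1.27 (SE 0.53, edgeR adjusted p = 0.0964), where 6700 of the 16037 genes did. DESeq2 called *Adgre1* (36.6% of all genes), and limma voom called none of the 10, where it called 4790 genes. *Cd163* was at -0.60 (SE 0.43, edgeR adjusted p = 0.33). Over the 9 fits that left out 1 library it ran from -0.97 to -0.39 and was called lower in 1 (edgeR adjusted p = 0.0327). Of the 10 markers, 7 had a positive log2 difference where 51.1% of all genes had one, and the median over the markers was 0.23. The tumor groups share their control libraries, so these 3 comparisons are not independent. For 8 of the 10 markers the group means ran from fast-growing PNs through controls to slow-growing PNs, and of neighbours in that order none differed by the edgeR test.

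The 3 controls differed among themselves. DRG3 was the lowest of the controls for 9 of the 10 markers and the highest for *Cd163*, and DRG4 was the highest for those 9. *Csf1r* was at 42.3 CPM in DRG3 and at 134 and 105 CPM in DRG4 and DRG5, and *Aif1* at 0.778 against 20.5 and 16.9 CPM. The leukocyte gene *Ptprc* moved with them, at 21, 428, and 314 CPM, as did the lymphocyte gene *Cd3e* (1.3, 67.1, and 46 CPM). None of the 9 lymphocyte markers was at 0 in all libraries of a group, and their part in the marker levels of DRG4 and DRG5 was not tested beyond the alternatives that follow, which were added after seeing the data. With DRG3 as the only control, assumed to vary like the PNs, edgeR called *Ms4a7* and *Aif1* higher in fast-growing PNs, by 3.75 and 4.14 on the log2 scale, where 9.30% of all genes were called, and against DRG3 alone 9 of the 10 log2 differences of slow-growing PNs changed sign, all but that of *Mrc1*. With the lymphocyte score of each library as a covariate, 7 of the 10 were called higher in fast-growing PNs than in controls, all but *C1qc*, *Mrc1*, and *Cd163*, where 26.5% of all genes were called. Without DRG3, edgeR called *Cd68*, *Ms4a7*, and *Aif1* lower in slow-growing PNs (15.3% of all genes), and without 1198A *C1qa*, *C1qc*, and *Csf1r* (9.57%).

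Across the 11 PNs, 9 of the 10 markers varied together. Pearson's r of log2(CPM + 1) between a marker and the mean of the other 9 was 0.99 for *Csf1r*, 0.98 for *C1qc*, *C1qb*, and *Adgre1*, 0.97 for *C1qa*, 0.95 for *Cd68*, 0.89 for *Mrc1*, 0.85 for *Ms4a7*, and 0.80 for *Aif1*. For *Cd163* it was 0.11, and Spearman's rho was 0.14. Leaving out the 2 PNs farthest from the median of the other 9 (1191 and 1203 for most markers) gave r of 0.94 for *Aif1*, 0.98 for *Csf1r*, and 0.03 for *Cd163*. Within the 6 fast-growing PNs alone, r was 0.996 for *Csf1r*, 0.77 for *Ms4a7*, and 0.58 for *Cd163*. Other genes varied with the markers too, since by r with the mean of all 10, *Ms4a7* and *Aif1* ranked 698 and 1208 among the 15465 genes tested, the 10 markers included. The fibroblast markers had r of 0.95 with *Mrc1* and 0.87 with *C1qb*, and of 0.64 with *Ms4a7* and 0.34 with *Cd163*. These values are descriptions over libraries that share scaling and, in part, tumor class. PN 1203 had the lowest level of all 14 libraries for 7 of the 10 markers, and 1179 had the highest for 4.

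**Figure D3:**
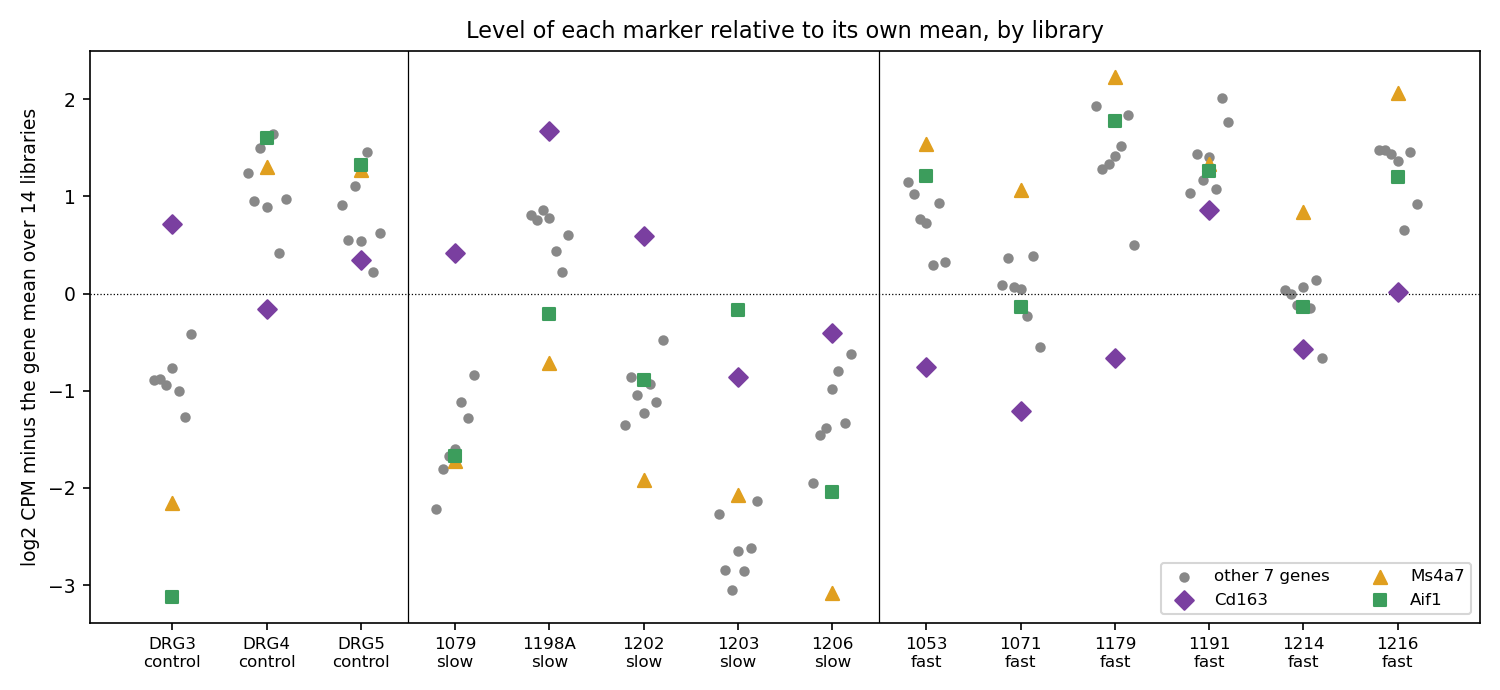
Log2 CPM of each marker minus its own mean over the 14 libraries, by library; grey points are *C1qa*, *C1qb*, *C1qc*, *Csf1r*, *Cd68*, *Adgre1*, and *Mrc1*, and *Cd163*, *Ms4a7*, and *Aif1* have symbols of their own. The grey points move together from library to library, *Cd163* lies above them in every slow-growing PN and below most of them in every fast-growing PN, and *Ms4a7* lies highest in 5 of the 6 fast-growing PNs.

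Set against *Csf1r* within each library, 1 of the 9 other markers, *Cd163*, did not overlap between the tumor classes. The ratio of *Cd163* to *Csf1r* per kilobase was 0.863, 0.398, 0.758, 0.739, and 0.319 in the slow-growing PNs and 0.0505 to 0.147 in the fast-growing PNs (median 0.0871). Every fast-growing PN was thus below every slow-growing PN, 1198A included, while controls ran from 0.103 in DRG4 through 0.186 in DRG5 to 0.598 in DRG3. Such a separation in this direction against *Csf1r* was shown by 4.14% of all genes tested. *Mrc1* overlapped, at 0.678 to 1.29 of *Csf1r* in slow-growing PNs and 0.404 to 0.984 in fast-growing PNs, and so did *Ms4a7*, at 0.0276 to 0.176 and 0.112 to 0.239. *Adgre1* per *Csf1r* was at 0.279 to 0.317 in controls and 0.415 to 0.60 in fast-growing PNs, without overlap, a separation in this direction that 1.88% of all genes showed. *Lyve1*, a hyaluronan receptor of vessel-associated macrophages and lymphatic endothelium, is not 1 of the 10 markers. Its CPM ratio to *Csf1r* was 0.306 to 1.08 in slow-growing PNs, 0.0214 to 0.214 in fast-growing PNs, and 0.637 to 0.738 in controls, so that the tumor classes did not overlap, as for *Cd163*, whereas every control lay above every fast-growing PN for *Lyve1* but not for *Cd163*. Against *Csf1r*, 11.8% of all genes tested had every control above every fast-growing PN. The ratios of *Timd4*, *Trem2*, and *Cx3cr1* to *Csf1r*, also examined, overlapped between the tumor classes, with that of *Timd4* at 0.017 to 0.0858 in slow-growing and 0.00365 to 0.0388 in fast-growing PNs. These ratios were examined after the levels had been seen, and no test was run on them.

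**Figure D4:**
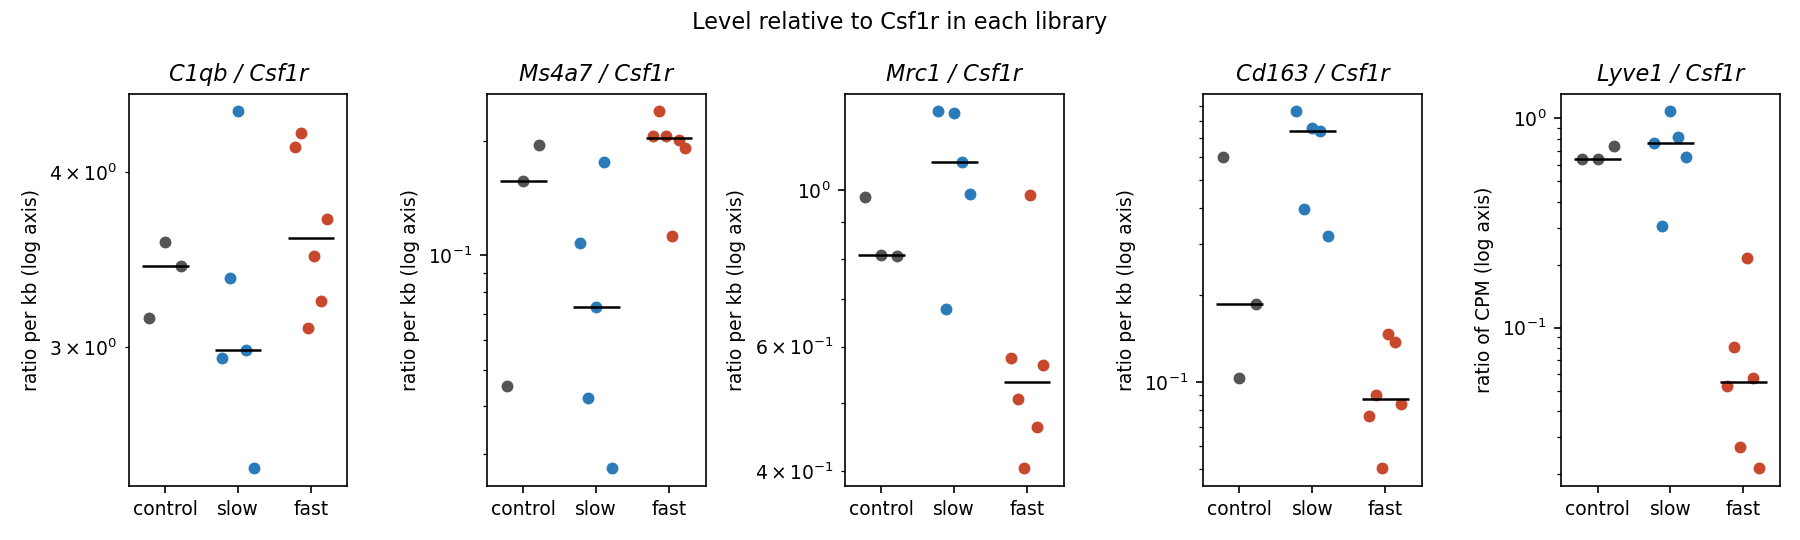
Ratios of *C1qb*, *Ms4a7*, *Mrc1*, and *Cd163* to *Csf1r* per kilobase of transcript, and of *Lyve1* to *Csf1r* in CPM, on log axes with different ranges; each point is 1 library and each bar the group median. *C1qb* stays within 2.46 to 4.42 of *Csf1r* in all libraries, and the slow- and fast-growing PNs do not overlap for *Cd163* or *Lyve1*.

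Among 20 other macrophage genes, 2 were called higher in fast- than in slow-growing PNs, *Fcgr1* and *Fcgr2b*, receptors for the constant part of IgG, where 0.802% of all genes were called higher. *Fcgr1* was at 0.836, 6.54, 1.52, 1.004, and 1.25 CPM in slow-growing PNs and 7.35 to 23.9 CPM (median 14.6) in fast-growing PNs, a log2 difference of 2.71 (SE 0.57, edgeR adjusted p = 0.0484). *Fcgr2b* differed by 1.82 (SE 0.36, edgeR adjusted p = 0.0449). For both, every fast-growing PN was above every slow-growing PN and every control. Of all genes tested, 2.10% had every fast-growing PN above every slow-growing PN, and 17.2% had every fast-growing PN above every control. Both calls were lost in 8 of 11 fits that left out 1 library, those without 1079, 1202, 1206, 1053, 1179, 1191, 1214, or 1216. In those 8 fits edgeR called 2 to 65 genes in all. Over all 11 fits the adjusted p in edgeR reached 0.136 for *Fcgr1* and 0.129 for *Fcgr2b*. The log2 differences stayed at 2.498 to 3.68 and 1.61 to 2.15 over the same 11 fits. Neither was called with limma voom, muscle and fat covariates, or the lymphocyte covariate, or without the 3 PNs with the most lymphocyte transcripts, and *Fcgr1* was also not called with RLE scaling or with no filter on low counts. The log2 difference was positive for 19 of the 20, with a median of 1.89, where 46.5% of all genes had a positive difference. *Itgam*, the integrin CD11b, differed by 2.02 (SE 0.64, edgeR adjusted p = 0.106). Against controls, 6 of the 20 were called higher in fast-growing PNs, where 14.8% of all genes were, and none lower. They included *Cx3cr1*, the receptor for fractalkine, at 2.51, 7.67, and 5.39 CPM in controls and 26.1 to 81.9 CPM (median 53) in fast-growing PNs, with a log2 difference of 3.25 (SE 0.52, edgeR adjusted p = 0.00144). *Trem2*, a lipid-sensing receptor of phagocytes, was at 0.432, 1.2, and 0.317 CPM in controls and 2.44 to 12.7 CPM (median 9.47) in fast-growing PNs, with a difference of 3.61 (SE 0.70, edgeR adjusted p = 0.00408). Its level in DRG5 was near the floor of 3 counts, which is 0.313 CPM by the total count of that library. *Mertk*, a receptor for the uptake of apoptotic cells, differed by 1.14 (SE 0.22, edgeR adjusted p = 0.00362). *Cx3cr1*, *Trem2*, and *Mertk* were higher in every fast-growing PN than in every control, DRG4 and DRG5 included, as were 17.2% of all genes tested. With muscle and fat covariates edgeR called none of the 3, against DRG3 alone it called neither *Trem2* nor *Mertk*, and *Trem2* was not called by limma voom nor *Mertk* in 1 fit of all libraries. In slow-growing PNs none of the 20 was called higher and 2 lower, *Tyrobp* (-2.70 (SE 0.71, edgeR adjusted p = 0.0445)) and *Csf2rb*, where 7.13% of all genes were called lower. *Csf2rb* was at 15.5, 131.6, and 113.5 CPM in DRG3, DRG4, and DRG5. Its slow-growing range was 7.67 to 28.35 CPM, which held DRG3. Over the 8 fits that left out 1 library, *Tyrobp* had an adjusted p of up to 0.169 in edgeR and log2 differences of -3.32 to -2.27. The call of *Tyrobp* was lost without DRG4, DRG5, 1079, 1202, 1203, or 1206. It was also lost with limma voom, on the deposited log2 values, with either covariate fit, once length and GC trends had been removed, without the 3 PNs with the most lymphocyte transcripts, and against DRG3 alone.

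The ligands of *Csf1r* are CSF1 and IL-34. *Il34* was at 12.3, 8.88, and 8.88 CPM in controls, 23.3, 60.3, 19.8, 8.85, and 27.2 CPM in slow-growing PNs, and 26.3 to 47.5 CPM (median 41.1) in fast-growing PNs, and was called higher in PNs by 1.75 (SE 0.45, edgeR adjusted p = 0.0105) on the log2 scale, a call lost without DRG4 or DRG5, where the adjusted p in edgeR reached 0.0634, and with muscle and fat covariates, with the lymphocyte covariate, or against DRG3 alone. *Csf1* was at 32.8 to 49.9 CPM in controls and 18.2 to 70.2 CPM in PNs, and differed between fast- and slow-growing PNs by 0.56 (SE 0.27, edgeR adjusted p = 0.276). *Spi1*, which encodes PU.1, was at 3.02, 18.8, and 17.1 CPM in controls, 1.44, 7.67, 2.44, 1.19, and 3.09 CPM in slow-growing PNs, and 5.44 to 22.7 CPM (median 13) in fast-growing PNs, with a log2 difference between the tumor classes of 1.95 (SE 0.53, edgeR adjusted p = 0.0769). *Cebpb*, a transcription factor of inflammatory myeloid cells that other cells also express, was called lower in PNs, with a log2 difference of -3.14 (SE 0.40, edgeR adjusted p = 7.79e-05). In this list of 8 ligands and transcription factors 1 was called higher and 1 lower in PNs, where 12.9% of all genes were called higher and 13.4% lower, and none between fast- and slow-growing PNs.

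Of 11 genes of resident tissue macrophages, 4 were called lower in PNs than in controls and none higher, where 13.4% of all genes were called lower. *Timd4*, a receptor for phosphatidylserine, was at 2.77, 236, and 162 CPM in DRG3, DRG4, and DRG5 and at 0.272 to 7.41 CPM in PNs, so that DRG3 lay within the PN range. *Pf4*, a chemokine, differed by -2.29 (SE 0.46, edgeR adjusted p = 0.00247), *Folr2*, a folate receptor, by -2.19 (SE 0.53, edgeR adjusted p = 0.00762), and *Lyve1* by -1.88 (SE 0.66, edgeR adjusted p = 0.0479). The call of *Lyve1* was lost in 10 of 14 fits that left out 1 library, all but those without DRG3, 1198A, 1202, or 1191. Over all 14 fits its adjusted p in edgeR was up to 0.196 and its log2 differences were -2.25 to -1.61. The call of *Lyve1* was also lost with no filter on low counts and once length and GC trends had been removed. The calls of *Pf4* and *Folr2* were lost without DRG5, at adjusted p of 0.0618 and 0.0505 in edgeR. With muscle and fat covariates or against DRG3 alone none of these 4 genes was called, and with the lymphocyte covariate only *Pf4* was. *Lyve1* was at 27, 85.6, and 77.6 CPM in controls, 18.1, 37.9, 33.2, 9.4, and 23.7 CPM in slow-growing PNs, and 3.96 to 40.9 CPM (median 5.59) in fast-growing PNs, with 1191 alone above 6.31 CPM among the fast-growing PNs. None of the 11 was called between fast- and slow-growing PNs. Of the 8 monocyte genes tested, 4 were called lower in PNs, among them *Ly6c2*, *Nr4a1*, and *Plac8*, and none was called between the tumor classes. Neither *Ly6c2* nor *Nr4a1* was called with muscle and fat covariates, with the lymphocyte covariate, or against DRG3 alone. *Ly6c2* was at 2.59, 33.3, and 47.7 CPM in controls, and against DRG3 alone it was not lower in PNs. Without DRG5, the calls of *Ly6c2* and *Nr4a1* were lost (edgeR adjusted p = 0.0642 and 0.234). *Ccr2*, the chemokine receptor of inflammatory monocytes, was at 12.8, 54.9, 19.7, 5.84, and 12.2 CPM in slow-growing PNs and 25.4 to 217 CPM (median 52.4) in fast-growing PNs, a difference of 1.94 (SE 0.66, edgeR adjusted p = 0.128).

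Of 15 lysosome and efferocytosis genes, which many cell types express, 2 were called lower in PNs, *Lamp1* (-0.55 (SE 0.11, edgeR adjusted p = 0.00232)) and *Npc2* (-0.84 (SE 0.20, edgeR adjusted p = 0.00813)), and none between the tumor classes, a share like the 13.4% of all genes called lower. Without DRG4 the call of *Npc2* was lost (edgeR adjusted p = 0.0694). Neither gene was called with muscle and fat covariates or against DRG3 alone, *Lamp1* was not called once length and GC trends had been removed, and *Npc2* was not called with the lymphocyte covariate. Among dendritic cell markers, *Itgax*, which encodes CD11c and is also expressed by macrophages, was called higher in fast- than in slow-growing PNs by 3.19 (SE 0.60, edgeR adjusted p = 0.0449), the only 1 of 6 tested. This call was lost when any 1 of the 8 libraries named for *Fcgr1* was left out, with an adjusted p of up to 0.129 in edgeR, and with limma voom. *Xcr1* and *Ccr7* were called lower in PNs than in controls, with log2 differences of -2.003 (SE 0.38, edgeR adjusted p = 0.00175) and -3.41 (SE 1.02, edgeR adjusted p = 0.024), and *Ccr7* had no count in DRG3 and was not called without DRG4 or DRG5 (edgeR adjusted p of up to 0.167). With the lymphocyte covariate or against DRG3 alone, edgeR called neither, and *Ccr7* was also not called with muscle and fat covariates, with limma voom, or on the deposited log2 values. Among markers of other cell types, granulocyte genes had 6 of 8 called lower in PNs (with *S100a8*, *Camp*, and *Elane* at the lowest p), lymphocyte genes 2 of 9 (*Nkg7* and *Ncr1*), mast cell genes 1 of 7 (*Mcpt4*), endothelial genes 2 of 6 (*Kdr* and *Egfl7*), fat genes 6 of 12, and skeletal muscle genes 8 of 14, and Schwann cell genes had 6 of 10 called higher, and fibroblast genes none of 8 either way. Over all genes, 12.9% were called higher and 13.4% lower in PNs. In fast-growing PNs alone, 7 of the 8 fibroblast genes were called higher than in controls and 1 lower, where 14.8% of all genes were called higher. Between fast- and slow-growing PNs, none of these lists had a gene called except the Schwann cell list, where *Gfap* differed by 2.47 (SE 0.37, edgeR adjusted p = 0.0317), a call lost in 7 of 11 fits that left out 1 library, those without 1079, 1202, 1206, 1053, 1179, 1191, or 1216 (edgeR adjusted p of up to 0.12). Muscle and fat transcripts were higher in the control group, lymphocyte transcripts in DRG4 and DRG5 but not in DRG3, and granulocyte transcripts in DRG5, and their part in the comparisons with controls was not tested beyond the covariates and left-out libraries given above.

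The 5 genes outside the set whose log2(CPM + 1) followed the mean of the 10 markers most closely over the 11 PNs, among 15455 genes, were *C3ar1* (r = 0.99), *Alox5ap* (0.99), *Tlr7* (0.99), *Pld4* (0.99), and *Cdkn2b* (0.99). *C3ar1* encodes the receptor for the complement fragment C3a, *Alox5ap* a protein needed for leukotriene synthesis, *Tlr7* an endosomal receptor for single-stranded RNA, *Pld4* a nuclease of endolysosomes, and *Cdkn2b* the cell cycle inhibitor p15. *C3ar1* was at 10.03, 47.3, 15.5, 5.48, and 12 CPM in slow-growing PNs and 34.1 to 117 CPM (median 65) in fast-growing PNs. It was at 11.1, 11.4, and 14.4 CPM in controls, without the difference of DRG3 from DRG4 and DRG5 that *Csf1r* showed. Over all 14 libraries its r was 0.78, and 2 of the 5 genes, *Tlr7* and *Pld4*, were among the 5 closest. With Spearman's rho over the 11 PNs, only *C3ar1* was. Among the 10 markers themselves, *Csf1r*, *C1qc*, *C1qb*, and *Adgre1* had r of 0.99 with the mean that includes them.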

How the data were processed

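The authors extracted total RNA from control DRGs with nerves and from frozen PNs and amplified it with the Ovation RNA-Seq System v2. Per the labels and the methods, reads were called with CASAVA 1.4, checked with FastQC 0.11.0, aligned to mm10 with TopHat2 2.0.9, and counted per gene with featureCounts 1.5.2, and the authors deposited these whole-number counts for 24062 genes. The authors also deposited log2 values of TMM-scaled CPM (edgeR 3.16.5) for 16382 genes, and the 10 columns headed by a mouse number alone hold log2 values too.

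Here the counts were filtered with filterByExpr, scaled with TMM, and tested with the quasi-likelihood test of edgeR 4.0.16 (R 4.3.3), with only the libraries of a comparison in the fit. Genes were called at a Benjamini-Hochberg adjusted p under 0.05 over all genes tested. The scripts were tested on simulated data. Amplified reads do not stand for separate molecules, and the floor of 3 counts therefore covers counting error alone.

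The 10 markers and the gene lists were chosen with earlier results of these data known. Named were all markers, 9 fixed macrophage genes, up to 3 called genes per list with the lowest p, and the 5 genes most like the mean of the markers, while *Csf2rb*, *Tyrobp*, *Plac8*, *Ptprc*, and *Cd3e* were named after their values had been seen, and some listed genes are not reported here by name. The alternatives were RLE scaling, no filter, DESeq2 1.42.0, limma 3.58.1 with voom or on the deposited log2 values, 1 fit of all libraries, covariates, removal of length and GC trends, and leaving out each library.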

Additional observations from a re-analysis of the deposited data

Results flagged for a closer look

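Among the 20 sets of values of the markers in slow- and fast-growing PNs, 1 held a library that stood apart from its group by Dixon's criterion, where chance gives about 1 in 20. It was *C1qa* in the slow-growing PN 1198A, whose gap to the next library took 0.729 of the range of log2(CPM + 1).

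Differences between the tumor classes that passed the test were 3.28 on the log2 scale for *Ms4a7*, 3.19 for *Itgax*, 2.71 for *Fcgr1*, 2.47 for *Gfap*, and 1.82 for *Fcgr2b*, each higher in 6 of 6 fast-growing PNs than in any slow-growing PN. None of the 5 was called in edgeR with muscle and fat covariates, and the calls were lost in 6 (*Ms4a7*), 7 (*Gfap*), or 8 (the other 3) of the 11 fits that left out 1 library. The fits in which a call was lost had 2 to 65 genes called in all.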

How the results depend on the processing

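The number of the 10 markers called was 0 for all PNs against controls under every alternative run. Against controls, slow-growing PNs had 1 marker called with DESeq2 and 1 in a single fit of all libraries, and 0 to 3 when each library was left out. Fast-growing PNs had 1 called with DESeq2, 7 with the lymphocyte covariate, and 2 with DRG3 as the only control, and 0 to 1 when each library was left out. Between fast- and slow-growing PNs, the count of 1 became 6 with DESeq2, 2 in a single fit of all libraries, 0 with muscle and fat covariates, 0 without the 3 PNs with the most lymphocyte transcripts, and 0 to 8 when each library was left out. The cause was not tested. Over all genes, that comparison had 196 calls, with 130 under RLE scaling, 1570 with DESeq2, 34 with limma voom, 423 in a single fit, 76 with the lymphocyte covariate, and 2 to 1194 without single libraries. All PNs against controls had 4283 calls, with 407 with muscle and fat covariates, 2411 with the lymphocyte covariate, 628 with DRG3 as the only control, and 2061 to 4779 without single libraries. Slow-growing PNs had 1769, with 3529 with DESeq2, 3280 in a single fit, 1112 once length and GC trends had been removed, 663 with the lymphocyte covariate, 957 without the 3 PNs with the most lymphocyte transcripts, 0 with muscle and fat covariates, 4 with DRG3 as the only control, and 599 to 2454 without single libraries. Fast-growing PNs had 5043, with 0 with muscle and fat covariates, 1564 with DRG3 as the only control, and 3342 to 5247 without single libraries. Of the calls between the tumor classes 63.3% were higher, and 49.3% once length and GC trends had been removed.

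Of the 10 markers, 10 changed sign under at least 1 alternative for all PNs against controls (5 with the lymphocyte covariate, 5 with muscle and fat covariates, 5 against DRG3 alone, and 7 when single libraries were left out), 9 for slow-growing PNs (9 against DRG3 alone), and 8 for fast-growing PNs (6 with muscle and fat covariates and 4 when single libraries were left out). The markers that kept their sign were *Mrc1* for slow-growing PNs and *Adgre1* and *Cd163* for fast-growing PNs. Log2 differences after a change of sign included, for all PNs against controls, *Cd68* (0.26 with the lymphocyte covariate, 1.19 against DRG3 alone), *Adgre1* (-2.28), *Cx3cr1* (-0.998), and *Lyve1* (0.38) with muscle and fat covariates, *Csf2rb* (0.80) and *Ly6c2* (0.029) against DRG3 alone, and *Ccr7* (0.19 with the lymphocyte covariate, 6.75 against DRG3 alone, where it had no count). For slow-growing PNs against controls they included *Ms4a7* (0.43 against DRG3 alone) and *Cd163* (-0.0387 with limma voom, -0.0822 on the deposited log2 values, -0.0947 with the lymphocyte covariate, -0.18 against DRG3 alone, and -0.32 to 0.42 without single libraries). The 10 differences of the markers between fast- and slow-growing PNs kept their sign under every alternative run. The median of all genes for PNs against controls was 0.10 and -0.03 on the deposited log2 values. No paired analysis was possible because the labels give the groups no shared replicate numbers.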
